A study of Arabidopsis thaliana with 14 samples.

Results

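Roots of 4 Arabidopsis thaliana genotypes that lack a working NIP5;1 gene were compared with roots of 3 genotypes in which NIP5;1 is intact, after 2 days at 0.3 µM boron. Only the 7 arrays at this low boron level entered the comparison, of 14 in the study. The first class, called channel mutants here, held nip5;1 alone and nip5;1 joined with bor1 (nip5;1 bor1), with bor2 (nip5;1 bor2) or with nip6;1 (nip5;1 nip6;1), and the last 3 are called the double mutants, or doubles, with these genes. The intact genotypes were the wild type and the single mutants bor1 and bor2, so a mutation in BOR1 or BOR2 was present on both sides. All plants were of ecotype Col-0, grew for 10 days at 100 µM boron and were 12 days old at harvest. The other 7 arrays hold the same genotypes kept at 100 µM boron, and are used here only to show what the class difference was where boron was sufficient. Phenotype notes name the alleles nip5;1-1, bor1-1 and bor2-1, and state impaired root and shoot growth of the channel mutants under limiting boron. They also state that bor1 and bor2 plants need more boron than the wild type. The number of plants behind an array is not given in the sources used here.

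Boron crosslinks the pectic polysaccharide rhamnogalacturonan II in the plant cell wall, and tissue that grows while boron is short forms a wall with fewer of these links. The NIP5;1 protein forms a channel in the plasma membrane of root cells through which boric acid enters from the soil side. BOR1 is a borate exporter that loads boron into the xylem. BOR2 is a related exporter that acts in root elongation, and NIP6;1 is a related channel of young shoot tissue. A root without NIP5;1 takes up little boron when the supply is low, and its elongation slows.

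Each genotype had 1 array at each boron level, so no genotype had a replicate of its own. A p-value here sets the class difference against the spread between genotypes of a class. That spread mixes the other mutations with biological and array error. The annotation used names no probe set for the 4 mutated genes, so the mutations were not checked by their own transcripts. The bor2 array at 0.3 µM stood apart. Its Spearman correlations with the 6 remaining low-boron arrays had a median of 0.946, while the medians of those 6 lay between 0.966 and 0.980. It carried high signals of the stress-induced zinc finger gene STZ, which was 4149 there and 228 to 656 on the other 6 arrays. Results that turn on the bor2 array are given with and without it. Without that array the intact class holds only the wild type and bor1. Its median log2 SD over all tested probe sets was then 0.106, against 0.158 with bor2. Where bor2 was the intact genotype nearest the channel mutants, leaving it out widens the difference by itself. The ratio of 3′ to 5′ GAPDH signals, a measure of RNA integrity, was 1.61 ± 0.160 in the channel mutants (SD, n = 4) and 1.77 ± 0.155 in the intact genotypes (n = 3; exact two-sided permutation p = 0.286). Of leaf photosynthesis transcripts, which would mark shoot tissue, 3 of 23 on the list had a named probe set (RCA, LHCB4.1 and LHCB4.2), and their summed signal ran from 1073 to 2249.9 in the channel mutants and from 1331 to 3274 in the intact genotypes (exact permutation p = 0.486). The endodermal regulator GSO1 and the root hair expansins EXPA7 and EXPA18 were measured as root markers. The summed signal of these expansins ran from 1913 to 2951 in the channel mutants and from 1839 to 2916 in the intact genotypes (exact permutation p = 0.886). In whole roots, fewer cells of a type and less RNA per cell cannot be told apart.

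At 0.3 µM boron the transcripts higher in the channel mutants included 4 genes of pectin-cutting or pectin-modifying families, the expansin EXPA20, the subtilase ARA12, an A/B barrel stress protein and a jacalin lectin. Those lower included the xyloglucan enzyme XTH21, a dirigent protein and a class III peroxidase. Of the 4 pectin genes, only 1 was on the list of pectin genes used here, which had 10 tested members. The number of tested probe sets of these families outside that list was not counted. Of 13648 probe sets tested with limma, 46 passed an adjusted p of 0.05, which is 0.337% of those tested. Of these, 36 were higher (0.264%) and 10 lower (0.0733%) in the channel mutants. At least a 2-fold difference was reached by 16 of the 36 and by 4 of the 10. A single gene was named by 23 of the 46 probe sets, 20 higher and 3 lower, and all 23 are described below. The classes did not overlap in any of the 46, and over all tested probe sets they did not overlap in 10.3% (6.43% higher and 3.89% lower in the channel mutants). At an unadjusted p under 0.05, 1495 probe sets (11.0%) stood out.

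**Figure D1:**
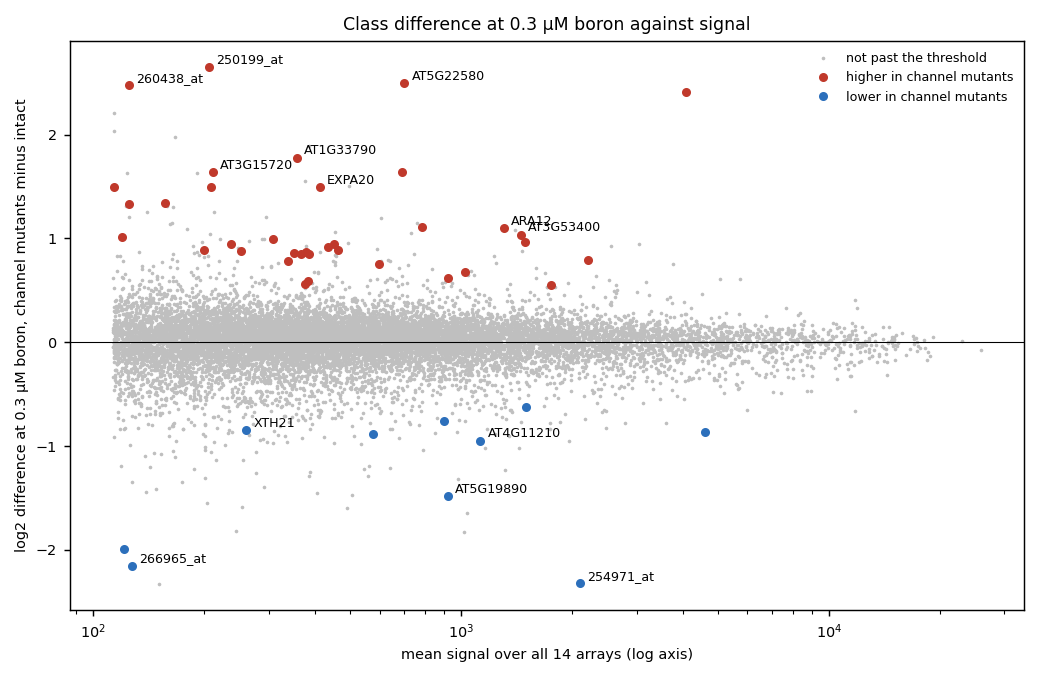
Log2 difference between the channel mutants and the intact genotypes at 0.3 µM boron (vertical axis) against the mean signal over all 14 arrays (horizontal log axis), 1 point per probe set. Red points are the 36 probe sets past the threshold and higher in the channel mutants, blue points the 10 lower, and grey points the others, with labels on named examples.

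The number of calls depended on which arrays were used. Without the bor2 array 211 probe sets passed, and all 46 were among them. Without one of the others, 9 passed when nip5;1 was left out, 20 without the wild type and 22 without bor1. Dropping the double mutant with bor1 gave 15 calls, that with nip6;1 gave 22 and that with bor2 gave 67. A limma fit of only the 3 matched pairs (nip5;1 with wild type, the bor1 double mutant with bor1, the bor2 double mutant with bor2) called 0 probe sets, with 972 at an unadjusted p under 0.05. The limma fit with the GAPDH ratio as a covariate also called 0, with 886 at an unadjusted p under 0.05. The limma fit of all 14 arrays with genotype as a random block called 135 (0.989%), 97 higher (0.711%) and 38 lower (0.278%), and 43 of the 46 were among them. Testing all 22746 probe sets, dim ones included, left 3 calls, of which 1 was among the 46 (the pectate lyase gene AT1G67750, adjusted p = 0.0353).

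Among the genes that rose were 4 of pectin-cutting or pectin-modifying families. Of these AT1G67750 was on the list of pectin genes, while AT3G15720, AT3G53190 and AT5G51490 were not and are named for the size of their rise. AT3G15720, which encodes a protein of the polygalacturonase family (enzymes that cut the pectin backbone), had signals of 371, 457, 302 and 446 in the channel mutants, against 98.3, 157 and 127 in the intact genotypes, always in the order single mutant, bor1, bor2 and nip6;1 double mutant and then wild type, bor1, bor2. The lowest channel mutant thus lay well above the highest intact genotype. Its log2 difference was 1.64 (SE 0.19, adjusted p = 0.00949), and the call was lost without either nip5;1 or the double with bor1 (adjusted p up to 0.0521). At 100 µM the difference was -0.04, from means of 141 ± 28.9 in the channel mutants and 146 ± 45.7 in the intact genotypes (SD, n = 4 and 3).

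Pectate lyases cleave de-esterified pectin, and 2 genes of this family rose. The number of tested pectate lyase probe sets was not counted, and over all tested probe sets 0.264% rose. AT3G53190 had signals of 2239, 2429, 1836 and 2094 in the channel mutants, against 948, 1298 and 1073 in the intact genotypes, a log2 difference of 0.96 (SE 0.13, adjusted p = 0.0188). Its call did not hold without any 1 of the wild type, nip5;1 and the doubles with bor1 and nip6;1 (adjusted p up to 0.0971). AT1G67750 rose by less but with little spread, at 1329, 1305, 1265 and 1389.7 in the channel mutants, against 798, 854 and 834 in the intact genotypes. The log2 difference of AT1G67750 was 0.67 (SE 0.08, adjusted p = 0.0115), and leaving out any 1 of the wild type, nip5;1 and the doubles with bor1 and nip6;1 (adjusted p up to 0.0702) ended the call. The pectin methylesterase gene AT5G51490, whose product removes methyl groups from pectin, had 316, 368, 358 and 294 in the channel mutants, against 187, 159 and 170.5 in the intact genotypes, and a log2 difference of 0.95 (SE 0.12, adjusted p = 0.0142). It lost the call without any 1 of nip5;1, bor1 and the double with bor1 (adjusted p up to 0.0789). In all 3 genes every channel mutant exceeded every intact genotype. At 100 µM their differences were 0.04 for AT3G53190, 0.11 for AT1G67750 and 0.14 for AT5G51490.

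The list of pectin synthesis and modification genes had 10 tested members, of which AT1G67750 rose, none fell and 9 did not pass. Over all tested probe sets 0.264% rose and 0.0733% fell. The list's median log2 difference was 0.12, against 0.03 over all tested probe sets. The members AT5G48900, AT4G24780, AT3G07010 and AT1G04680 lay at -0.22, -0.22, 0.01 and 0.23, in that order, and did not pass. Among those that did not pass, the pectin methylesterase gene PMEPCRF had signals of 602, 555, 654 and 566 in the channel mutants, against 431, 348 and 474 in the intact genotypes, without overlap, and a log2 difference of 0.52 (SE 0.12, adjusted p = 0.149). Without bor2 PMEPCRF passed at 0.62 (SE 0.13, adjusted p = 0.0423), and 3 of the 10 rose (AT1G67750, PMEPCRF and ATPMEPCRB, described below), where 1.05% of all tested probe sets rose. The largest difference of the list was that of the pectate lyase family gene AT3G27400, at 1.32 (SE 0.37, adjusted p = 0.219), with signals of 198, 306, 105 and 290.0 in the channel mutants, against 59.5, 81.2 and 119 in the intact genotypes. In AT3G27400 the classes overlapped, since the bor2 double mutant lay below bor2.

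Among genes that loosen or remodel the wall, EXPA20 (AT4G38210), an alpha-expansin, rose. Expansins loosen the bonds between wall polymers without cutting them. EXPA20 signals were 674, 924, 748 and 870.1 in the channel mutants, against 229, 334 and 299 in the intact genotypes. The lowest of the channel mutants was about double the highest intact genotype. Its log2 difference was 1.49 (SE 0.16, adjusted p = 0.00703), and the call held whichever array was left out (adjusted p up to 0.0431). At 100 µM, EXPA20 had 241, 247, 249.5 and 219.9 in the channel mutants, against 291, 217 and 243 in the intact genotypes, with overlapping classes. Of 13 tested expansins EXPA20 rose, none fell and 12 did not pass, with a list median of 0.01. The share that rose over all tested probe sets was 0.264%. After EXPA20, the expansin-like gene EXLB1 came next at 0.62 (SE 0.18, adjusted p = 0.247). EXLB1 passed without bor2 at 0.80 (SE 0.17, adjusted p = 0.0431). Thus 2 of the 13 rose then, where 1.05% of all tested probe sets rose. EXPB1 lay at the other end at -0.51 (SE 0.23, adjusted p = 0.482).

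XTH21 (AT2G18800) encodes an enzyme of the xyloglucan endotransglucosylase family, which cuts and rejoins xyloglucan chains. XTH21 signals were 143, 184, 158 and 146 in the channel mutants, against 269.5, 279 and 299 in the intact genotypes. All channel mutants were lower, with a log2 difference of -0.85 (SE 0.13, adjusted p = 0.0309). The call was lost without any 1 of the wild type, nip5;1, bor1 and the doubles with bor1, bor2 and nip6;1 (adjusted p up to 0.135), so 6 of the 7 arrays were each needed for it. XTH20, of the same family, lay the other way, with 1106, 1366, 1054 and 1008 in the channel mutants, against 563, 580.4 and 840.1 in the intact genotypes, and a difference of 0.79 (SE 0.16, adjusted p = 0.0935), and it passed without bor2 at 0.98 (SE 0.13, adjusted p = 0.0049). In the list of 9 tested members XTH21 fell, none rose and 8 did not pass, with a median of -0.19. Over all tested probe sets 0.0733% fell and 0.264% rose.

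ARA12 (AT5G67360) encodes a subtilisin-like protease that is needed in seed coat mucilage, where it affects the demethylation of pectin. ARA12 signals were 1866, 2568, 1826 and 2124 in the channel mutants, against 877, 957 and 1090.2 in the intact genotypes. The bor1 double mutant was the highest, and the classes were far from overlap. The log2 difference was 1.10 (SE 0.13, adjusted p = 0.0115), and the call was lost without any 1 of the wild type, nip5;1 and bor1 (adjusted p up to 0.0653). At 100 µM both classes lay close together, at 992 ± 78.0 in the channel mutants and 997 ± 13.8 in the intact genotypes (SD, n = 4 and 3). Of 4 tested subtilases, ARA12 rose, none fell and 3 did not pass, where 0.264% of all tested probe sets rose.

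AT2G16630, a member of the Ole e 1 and extensin protein family of wall-associated proteins, had signals of 396, 474, 329 and 385 in the channel mutants, against 92.0, 182 and 162 in the intact genotypes. Its log2 difference was 1.49 (SE 0.23, adjusted p = 0.0309), lost without any 1 of nip5;1 and the doubles with bor1 and nip6;1 (adjusted p up to 0.144). AT1G32860 encodes a glycoside hydrolase of the family of beta-1,3-glucanases, which act on callose. It had 376, 425, 330.0 and 401 in the channel mutants, against 213, 203 and 204 in the intact genotypes, a log2 difference of 0.88 (SE 0.12, adjusted p = 0.0142), lost without any 1 of the wild type, nip5;1, bor1 and the doubles with bor1 and nip6;1 (adjusted p up to 0.0792). Both genes were higher in all 4 channel mutants than in any intact genotype. AT2G31110, of the TBL family whose members acetylate wall polysaccharides, rose by the smaller margin of 0.56 (SE 0.09, adjusted p = 0.0475), from signals of 541, 496, 529 and 505 in the channel mutants, against 330.5, 349 and 372 in the intact genotypes. That call was lost without any 1 of the wild type, nip5;1, bor1 and the doubles with bor1, bor2 and nip6;1 (adjusted p up to 0.228), with quantile normalization (adjusted p = 0.0559), without the intensity trend (adjusted p = 0.057) and with the upper 40% of probe sets (adjusted p = 0.0503).

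AT4G11210 encodes a dirigent protein, of a family that guides the coupling of monolignol radicals in lignan and lignin formation. AT4G11210 signals were 729, 583, 791 and 623 in the channel mutants, against 1486, 1317 and 1142 in the intact genotypes. Every channel mutant was lower than every intact genotype. The log2 difference was -0.95 (SE 0.14, adjusted p = 0.0231), lost without any 1 of the wild type, nip5;1, bor1 and the doubles with bor1 and nip6;1 (adjusted p up to 0.126). At 100 µM the difference was 0.06. None of 5 tested phenylpropanoid and lignin genes passed in either direction, and their median was 0.10.

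**Figure D2:**
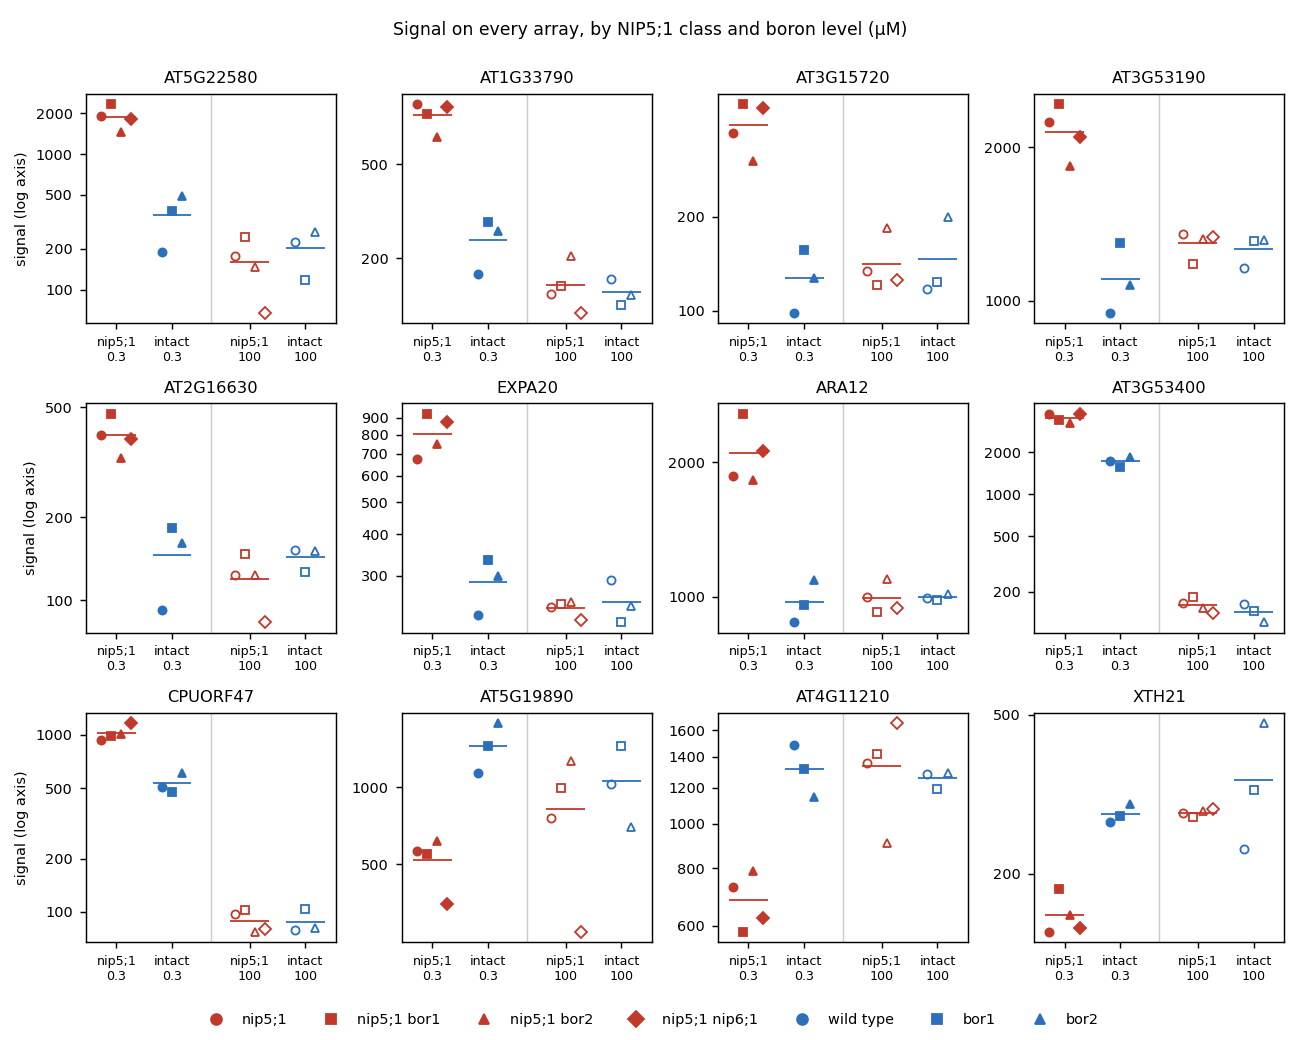
Signal of 12 named genes on all 14 arrays (vertical log axis, signal units), with the channel mutants in red (nip5;1 on the axis) and the intact genotypes in blue, at 0.3 µM boron (filled) and 100 µM boron (open). Symbols mark the genotype and bars the class mean. The classes separate at 0.3 µM in all 12 panels.

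Class III peroxidases are secreted enzymes that make or use hydrogen peroxide in the wall. Of 40 tested members 1 fell, none rose and 39 did not pass, and the list median was 0.03, the same as over all tested probe sets. Over all tested probe sets 0.0733% fell and 0.264% rose. The member that fell was AT5G19890, with signals of 566, 551, 619 and 349.6 in the channel mutants, against 1135, 1441 and 1773 in the intact genotypes. That is a log2 difference of -1.48 (SE 0.21, adjusted p = 0.0231). It was lost without any 1 of nip5;1, bor1 and the double with bor1 (adjusted p up to 0.0926), and in the fit of all 14 arrays (adjusted p = 0.0993). At 100 µM its difference was -0.51, with overlapping classes.

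Other peroxidases lay higher or lower without passing. PRX52, which acts in lignin formation, had signals of 408, 545, 279.6 and 472 in the channel mutants, against 39.1, 129 and 229 in the intact genotypes, a log2 difference of 1.98 (SE 0.50, adjusted p = 0.166). AT5G06730 had 421, 475, 309 and 437 in the channel mutants, against 115, 166 and 258 in the intact genotypes, and a difference of 1.25 (SE 0.25, adjusted p = 0.0933). In both, the classes did not overlap and the bor2 array was the highest of the intact genotypes, so leaving it out widens the difference by itself. Without bor2, PRX52 passed at 2.54 (SE 0.40, adjusted p = 0.0121) and AT5G06730 at 1.56 (SE 0.20, adjusted p = 0.00453). Without that array 5 peroxidases rose and 1 fell, where 1.55% of all tested probe sets passed. At 100 µM PRX52 was dim, at 45.1 ± 26.3 in the channel mutants and 16.0 ± 4.0 in the intact genotypes (SD, n = 4 and 3). Its log2 difference there was 0.97, and that of AT5G06730 was -0.43. For PRX52 the change of the class difference with boron, tested below, did not pass in limma (1.01, SE 0.67, adjusted p = 0.823). AT2G18980 was lower in the channel mutants without overlap, at -0.55 (SE 0.11, adjusted p = 0.0935). The limma fit of all 14 arrays called both AT2G18980 (adjusted p = 0.0234) and AT5G06730 (adjusted p = 0.0212). Of the 40 peroxidases, 7 were higher and 2 lower without overlap, against 6.43% and 3.89% of all tested probe sets.

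The largest named rise was that of AT5G22580, which encodes a protein of the stress-responsive A/B barrel family. Its signals were 1918, 2322, 1461 and 1809.9 in the channel mutants, against 190.3, 382 and 487 in the intact genotypes. The lowest channel mutant was 3 times the highest intact genotype. The log2 difference was 2.50 (SE 0.28, adjusted p = 0.00833), a fold of 5.64, and the call was lost without nip5;1 (adjusted p = 0.0506). At 100 µM the gene had 177, 245, 146 and 67.3 in the channel mutants, against 225, 117 and 268 in the intact genotypes, with overlapping classes and a difference of -0.42.

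AT1G33790, a gene of the jacalin-type lectins, which bind carbohydrates, followed with 894, 814, 650.3 and 874 in the channel mutants, against 172, 286 and 262 in the intact genotypes. The classes were widely separated. The lectin gene's log2 difference was 1.78 (SE 0.18, adjusted p = 0.00703), and it passed whichever array was left out (adjusted p up to 0.0499). AT4G38410 encodes a dehydrin, a hydrophilic protein of water-deficit responses, and had signals of 1595, 1454, 1161 and 1393 in the channel mutants, against 759.8, 648 and 544 in the intact genotypes. The dehydrin gene's log2 difference was 1.11 (SE 0.14, adjusted p = 0.0136), lost without any 1 of nip5;1, bor1 and the doubles with bor1 and nip6;1 (adjusted p up to 0.0789), and at 100 µM it was 0.37, the highest of the 36 there.

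Of genes for signalling, transport and transcription, AT2G42960, which encodes a protein kinase family member, had signals of 197, 228, 148 and 215 in the channel mutants, against 54.3, 92.3 and 64.8 in the intact genotypes, and a log2 difference of 1.50 (SE 0.22, adjusted p = 0.0293). It was lost without any 1 of the wild type, nip5;1 and the doubles with bor1 and nip6;1 (adjusted p up to 0.144). AT1G59740, of the nitrate and peptide transporter family, had 487, 481, 472 and 572 in the channel mutants, against 283, 266 and 331 in the intact genotypes, a difference of 0.78 (SE 0.12, adjusted p = 0.0305). Here the nip6;1 double mutant was the highest of the mutants, while the other 3 lay within 472 to 487. The call was lost without any 1 of the wild type, nip5;1, bor1 and the doubles with bor1 and nip6;1 (adjusted p up to 0.157). AT2G34140 encodes a Dof-type DNA-binding protein and had 1188, 1282, 1228 and 1059.8 in the channel mutants, against 783, 806 and 732 in the intact genotypes, with a difference of 0.62 (SE 0.10, adjusted p = 0.0346). AT3G51670, of the patellin family of lipid-binding membrane traffic proteins, had 2206, 2266, 2024 and 2265 in the channel mutants, against 1487, 1609 and 1391 in the intact genotypes, with a difference of 0.55 (SE 0.09, adjusted p = 0.0382). The classes did not overlap in either gene, and the differences correspond to 1.53-fold for AT2G34140 and 1.47-fold for AT3G51670. AT2G34140 was lost without any 1 of the wild type, nip5;1, bor1 and the doubles with bor1, bor2 and nip6;1 (adjusted p up to 0.157) and AT3G51670 without any 1 of the wild type, nip5;1, bor1 and the doubles with bor1 and nip6;1 (adjusted p up to 0.186), and neither passed without the intensity trend (adjusted p = 0.0572 for AT2G34140 and 0.0729 for AT3G51670).

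The remaining named rises were genes whose role is not stated here. AT3G53400 had 3767, 3377, 3226 and 3742 in the channel mutants, against 1735, 1574 and 1851 in the intact genotypes, with a log2 difference of 1.04 (SE 0.09, adjusted p = 0.00686), and passed whichever array was left out (adjusted p up to 0.0431). CPUORF47 (AT5G03190), named for a conserved peptide upstream open reading frame, had 938, 984, 1006 and 1163 in the channel mutants, against 511, 476 and 609 in the intact genotypes, with a difference of 0.95 (SE 0.12, adjusted p = 0.0116). It was lost without any 1 of the wild type, nip5;1, bor1 and the double with bor1 (adjusted p up to 0.0666). AT3G19200 had 593, 568, 421 and 558 in the channel mutants, against 264, 287 and 251 in the intact genotypes, a difference of 0.99 (SE 0.13, adjusted p = 0.0187), lost without any 1 of the wild type, nip5;1, bor1 and the doubles with bor1 and nip6;1 (adjusted p up to 0.102). AT1G29270 had 729.7, 756, 617 and 691 in the channel mutants, against 377, 388 and 361 in the intact genotypes, a difference of 0.89 (SE 0.10, adjusted p = 0.00833), lost without nip5;1 (adjusted p = 0.0508). In all 4 the lowest channel mutant was above the highest intact genotype.

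Probe sets with no gene name held the largest rise and the largest fall, and are given by ID. The 250199_at signals were 604, 670.0, 322 and 607 in the channel mutants, against 55.0, 95.4 and 114 in the intact genotypes, a log2 difference of 2.66 (SE 0.30, adjusted p = 0.00833), lost without nip5;1 (adjusted p = 0.0506). The 260438_at signals were 347, 404, 275 and 374 in the channel mutants, against 56.3, 79.4 and 54.0 in the intact genotypes, a difference of 2.48 (SE 0.19, adjusted p = 0.00258), which passed whichever array was left out (adjusted p up to 0.0325). Both were several times higher in every channel mutant than in any intact genotype. In the other direction, 254971_at had 1303, 1141, 1655 and 789 in the channel mutants, against 7624, 5493 and 4908 in the intact genotypes, a difference of -2.32 (SE 0.23, adjusted p = 0.00703), which also passed whichever array was left out (adjusted p up to 0.0487). The 266965_at signals were 7.8, 2.9, 3.1 and 29.2 in the channel mutants, against 123, 70.4 and 108 in the intact genotypes, a difference of -2.15 (SE 0.32, adjusted p = 0.0282) that was lost without any 1 of the wild type, nip5;1, bor1 and the double with bor1 (adjusted p up to 0.212). Of its mutant arrays 3 lay under the floor of 20 signal units used before taking logs, so the size of that difference is understated.

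The class difference at 0.3 µM was set beside that at 100 µM, where boron is sufficient. Among the 36 probe sets that rose, the differences ran from 0.55 to 2.66 with a median of 0.96 at 0.3 µM, and from -0.42 to 0.37 with a median of 0.05 at 100 µM. Among the 10 that fell, they ran from -2.32 to -0.63 with a median of -0.92 at 0.3 µM, and from -0.51 to 0.57 with a median of 0.05 at 100 µM. The 36 and the 10 were chosen by their class difference at 0.3 µM, so what follows describes them. All 4 nip5;1 genotypes had a higher signal at 0.3 than at 100 µM in each of the 36 probe sets, as in 13.9% of all tested. All 3 intact genotypes did so in 9 of them, and all 3 had a lower signal at 0.3 µM in 6, against 13.1% and 17.1% of all tested. The median log2 difference between 0.3 and 100 µM over the 36 was 1.04 in the channel mutants and 0.12 in the intact genotypes. Of the 10 that fell, all 4 nip5;1 genotypes had a lower signal at 0.3 than at 100 µM in 6, as in 13.0% of all tested. All 3 intact genotypes had a lower signal at 0.3 µM in 1 of the 10 and a higher one in 4, against 17.1% and 13.1% of all tested. The median log2 difference between 0.3 and 100 µM over the 10 was -0.81 in the channel mutants and 0.18 in the intact genotypes.

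A few of the 36 were high at 0.3 µM in both classes and higher still in the channel mutants. AT3G53400 averaged 3528 ± 269 in the channel mutants and 1720.0 ± 139 in the intact genotypes at 0.3 µM (SD, n = 4 and 3). At 100 µM it averaged 161 ± 18.4 in the channel mutants and 144 ± 21.4 in the intact genotypes. CPUORF47 averaged 1023 ± 97.7 in the channel mutants and 532 ± 69.1 in the intact genotypes at 0.3 µM, and 89.3 ± 12.2 in the channel mutants and 88.2 ± 13.9 in the intact genotypes at 100 µM. With 260438_at these were the 3 probe sets of the 36 in which the intact mean was at least 2-fold higher at 0.3 than at 100 µM. In 254971_at the intact genotypes alone were high at 0.3 µM, at 1222 ± 359.7 in the channel mutants and 6008 ± 1429.7 in the intact genotypes, against 1041 ± 208 in the channel mutants and 812 ± 59.8 in the intact genotypes at 100 µM.

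Whether the class difference changed with boron was tested in limma on the 7 within-genotype differences between 0.3 and 100 µM. Of 13648 probe sets 15 passed (0.110%), 10 with a positive and 5 with a negative value, and 9 of the 15 were among the 46. Named genes of the 46 that passed were AT5G22580 at 2.91 (SE 0.45, adjusted p = 0.0438) and EXPA20 at 1.55 (SE 0.23, adjusted p = 0.0335). The probe sets 260438_at, at 2.61 (SE 0.30, adjusted p = 0.00776), and 254971_at, at -2.66 (SE 0.25, adjusted p = 0.00361), passed as well. ARA12 narrowly missed the threshold, at 1.11 (SE 0.18, adjusted p = 0.0528), and AT5G19890 was far from it at -0.98 (SE 0.36, adjusted p = 0.51). Genes outside the 46 that were picked after their values were seen include the peroxidase gene AT5G06730, at 1.69 (SE 0.23, adjusted p = 0.0241), and AT5G04120, at -1.92 (SE 0.24, adjusted p = 0.0148). Leaving out 1 genotype gave 2 calls without nip5;1, 4 without the wild type, 12 without bor1 and 27 without bor2. It gave 7, 46 and 5 calls with the bor1, bor2 and nip6;1 double mutant dropped, in that order. Without nip5;1, 0 of the calls were positive, so AT5G22580, EXPA20, 260438_at and AT5G06730 did not pass then. Positive calls numbered 2 both without the wild type and without the nip6;1 double mutant.

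Each nip5;1 genotype except nip5;1 nip6;1 was also set against the genotype that shares its background, as a description of single arrays. No nip6;1 single mutant was among the genotypes, so nip5;1 nip6;1 had no matched background. The 36 that rose and the 10 that fell were selected on these same arrays. Their classes did not overlap, so the sign of every pair at 0.3 µM was fixed and only its size is described. Over the 36 probe sets that rose, the median log2 difference was 1.10 for nip5;1 minus wild type, 1.06 for the bor1 double mutant minus bor1 and 0.88 for the bor2 double mutant minus bor2. Over the 10 that fell it was -0.99, -1.13 and -0.89 in the same order of pairs. AT5G22580 had 3.33, 2.60 and 1.59 in that order. EXPA20 varied little, with 1.56, 1.47 and 1.32. AT4G38410 had 1.07, 1.17 and 1.09, nearly equal in the 3 backgrounds. At least a 2-fold rise in all 3 pairs was shown by 11 probe sets, 7 of them naming a gene: AT5G22580, AT4G38410, EXPA20, AT3G15720, AT1G33790, AT2G42960 and AT2G16630. A 2-fold fall in all 3 pairs was shown by 5, with AT5G19890 and AT5G04120 as the genes named. AT5G04120 had 328, 333, 197 and 357 in the channel mutants, against 1487, 799 and 663 in the intact genotypes, and missed the threshold at -1.64 (SE 0.29, adjusted p = 0.0574). It passed without bor2, at -1.88 (SE 0.27, adjusted p = 0.00719).

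**Figure D3:**
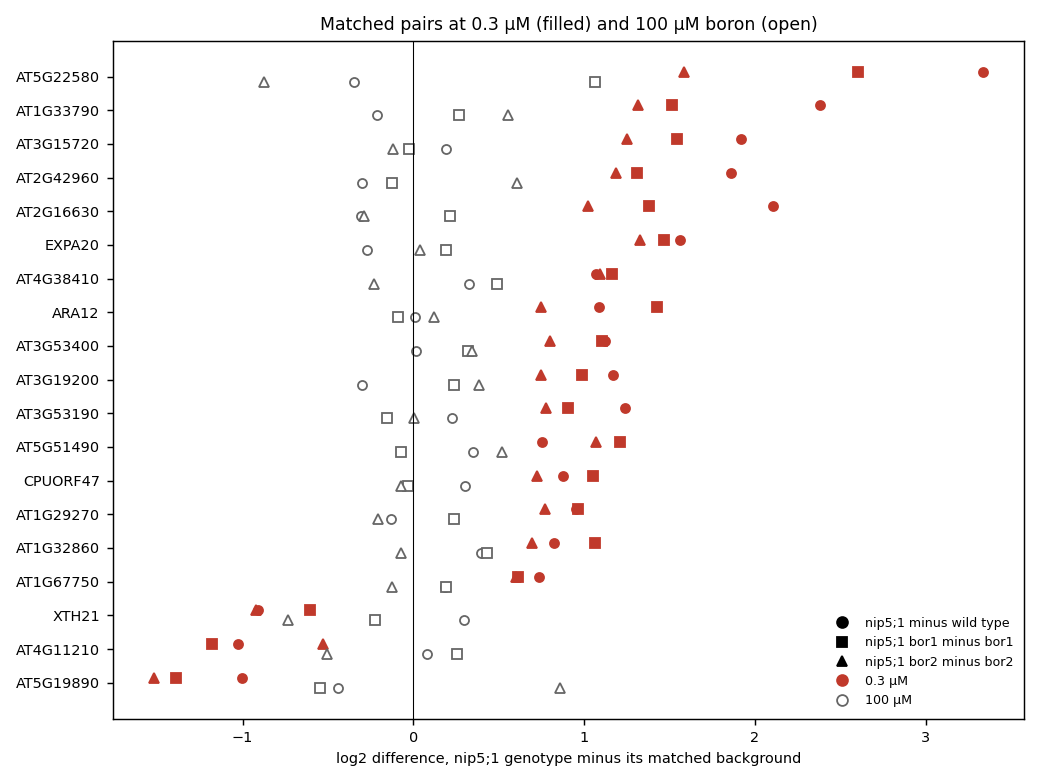
Log2 difference of each nip5;1 genotype except nip5;1 nip6;1, minus the genotype of its own background (horizontal axis). The 19 named genes are shown at 0.3 µM boron (filled red) and at 100 µM boron (open grey). Circles are nip5;1 minus wild type, squares the bor1 double mutant minus bor1 and triangles the bor2 double mutant minus bor2. All red symbols of a gene lie on 1 side of 0, as they must in genes whose classes do not overlap at 0.3 µM.

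Within the classes the genotypes kept a partial order. Among the 36 probe sets, the bor2 double mutant was the lowest of the 4 mutants in 25 and the bor1 double mutant the highest in 22. Over all tested probe sets the bor2 double mutant was the lowest in 33.5% and the bor1 double mutant the highest in 26.4%. The wild type was the lowest intact genotype in 17 of the 36 and bor1 the highest in 20, where over all tested probe sets these shares were 32.1% and 35.4%. These orders are descriptions of single arrays and were not tested. The pairwise counts of probe sets with at least a 2-fold difference were 106 higher and 72 lower for nip5;1 over wild type and 110 higher and 81 lower for the bor1 double mutant over bor1. For the bor2 double mutant over bor2 they were 117 higher and 391 lower, and that pair holds the array that stood apart. At 100 µM, where that array is not used, the bor2 pair also had the most, with 50 higher and 110 lower. The counts there were 17 higher and 27 lower for nip5;1 over wild type. For the bor1 double mutant over bor1 they were 22 and 24.

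Boron transporters could be followed only in part. AT3G06450, a gene of the BOR family, had signals of 554, 594, 475 and 710.0 in the channel mutants, against 419.9, 423 and 466 in the intact genotypes. The channel mutants lay above the intact genotypes by a narrow gap, and the log2 difference was 0.40 (SE 0.14, adjusted p = 0.315). WRKY6 (AT1G62300), a transcription factor gene known for its induction by low boron in roots, had 479.7, 549, 473 and 439 in the channel mutants, against 444, 445 and 642 in the intact genotypes, with overlapping classes and a difference of -0.06 (SE 0.15, adjusted p = 0.919). The BOR family gene AT5G25430 was too dim to be tested, with signals of 26.0, 15.2, 30.7 and 27.0 in the channel mutants, against 7.3, 20.1 and 13.7 in the intact genotypes. None of the 2 tested members of this list passed.

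The bor2 array decided the calls of several further genes, which were picked after their values were seen. SWEET11 (AT3G48740), a sucrose exporter of phloem loading, had 266, 341, 438 and 343 in the channel mutants, against 1932, 1206 and 266 in the intact genotypes. The wild type and bor1 were high, while bor2 lay as low as the channel mutants, and the log2 difference of -1.32 (SE 0.55, adjusted p = 0.423) did not pass. Without bor2 it was -2.16 (SE 0.21, adjusted p = 0.00122). At 100 µM SWEET11 had 1325, 1198, 1318 and 1592 in the channel mutants, against 1891, 1282 and 301 in the intact genotypes, so bor2 was low there too while the bor2 double mutant was not. The test of the change of the class difference with boron gave -1.90 (SE 0.18, adjusted p = 0.00361) with all genotypes.

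The pectin methylesterase gene ATPMEPCRB (AT4G02330) had 402, 427, 254 and 419 in the channel mutants, against 97.1, 118 and 548 in the intact genotypes. Its bor2 array was the highest of the 7, and the log2 difference was 0.99 (SE 0.51, adjusted p = 0.537) with that array and 1.78 (SE 0.21, adjusted p = 0.00277) without it. AT4G33720, a secreted protein gene of the CAP family that also holds PR-1, had 1222, 2326, 729 and 1752 in the channel mutants, against 482, 291 and 2084 in the intact genotypes, with 1.06 (SE 0.61, adjusted p = 0.584) and, without bor2, 1.88 (SE 0.37, adjusted p = 0.0363). Stress regulators were high on that array alone: the zinc finger gene STZ had 373, 275, 248 and 656 in the channel mutants, against 228, 242 and 4149 in the intact genotypes. The transcription factor gene WRKY53 had 219, 213, 160.5 and 269 in the channel mutants, against 178, 236 and 987 in the intact genotypes, and the calmodulin-like genes CML23 and CML38 showed the same single high array, at 1071 and 799 in bor2. At 100 µM, bor2 had 693 for STZ and 141 for WRKY53, within or below the range of the other arrays at that level. The leaf transcripts RCA, LHCB4.1 and LHCB4.2 were also highest on the bor2 array at 0.3 µM, at 1242, 1439 and 594. Their part in these results was not tested.

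**Figure D4:**
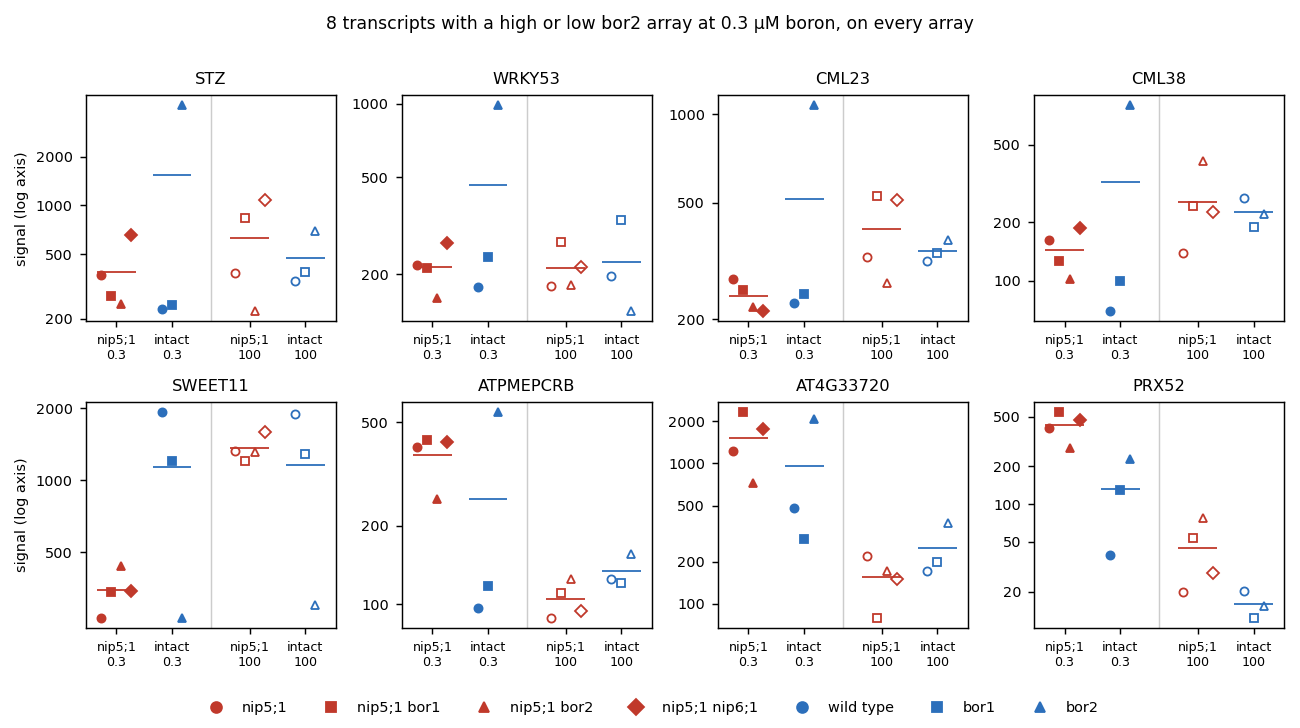
Signal of 8 transcripts on all 14 arrays (vertical log axis, signal units), with the channel mutants in red (nip5;1 on the axis) and the intact genotypes in blue, at 0.3 µM boron (filled) and 100 µM boron (open). The filled blue triangle is the bor2 array at 0.3 µM, which was the highest intact array in 7 panels and the lowest in the SWEET11 panel.

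Defensin-like genes encode small secreted cysteine-rich peptides. Of 5 tested none passed, with a list median of 0.41 at 0.3 µM and -0.10 at 100 µM, and 3 of them were higher in the channel mutants without overlap, as were 6.43% of all tested probe sets. PDF1.4 had 299, 270.0, 172 and 432 in the channel mutants, against 35.1, 81.1 and 109 in the intact genotypes, a difference of 2.04 (SE 0.40, adjusted p = 0.0808). PDF2.1 had 446, 762, 385 and 388 in the channel mutants, against 246, 162 and 219.9 in the intact genotypes, a difference of 1.20 (SE 0.24, adjusted p = 0.0935). LCR69 was abundant, with means of 15204 ± 874 in the channel mutants and 11524 ± 1785 in the intact genotypes (SD, n = 4 and 3), and a difference of 0.41 (SE 0.10, adjusted p = 0.159). Without bor2, where 1.05% of all tested probe sets rose, all 3 passed, PDF1.4 at 2.38 (SE 0.37, adjusted p = 0.0118), PDF2.1 at 1.25 (SE 0.27, adjusted p = 0.0484) and LCR69 at 0.53 (SE 0.09, adjusted p = 0.0157).

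In the other lists no member passed with all 7 arrays. Plastid-encoded transcripts had a median of -0.17 over 34 tested members, and of -0.25 at 100 µM. Their summed signal was 30991 ± 5249 in the channel mutants (n = 4) and 34637 ± 196 in the intact genotypes (n = 3; exact permutation p = 0.343). Glutathione S-transferases, detoxification enzymes, had a median of -0.24 over 10, and hypoxia core genes a median of 0.07 over 11. Cytochrome P450 genes had a median of -0.13 over 11, and the CAP family one of -0.11 over 11. Of 4 tested cell division genes none passed, and their summed signal was 2017 ± 274 in the channel mutants and 1848 ± 180.2 in the intact genotypes (SD, n = 4 and 3; exact permutation p = 0.4). Wall integrity receptors, among them THE1 and FER, showed differences from -0.21 to 0.15 in 3 tested genes. THE1 had 488, 582, 496 and 492 in the channel mutants, against 474, 523 and 515 in the intact genotypes, with overlapping classes.

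**Figure D5:**
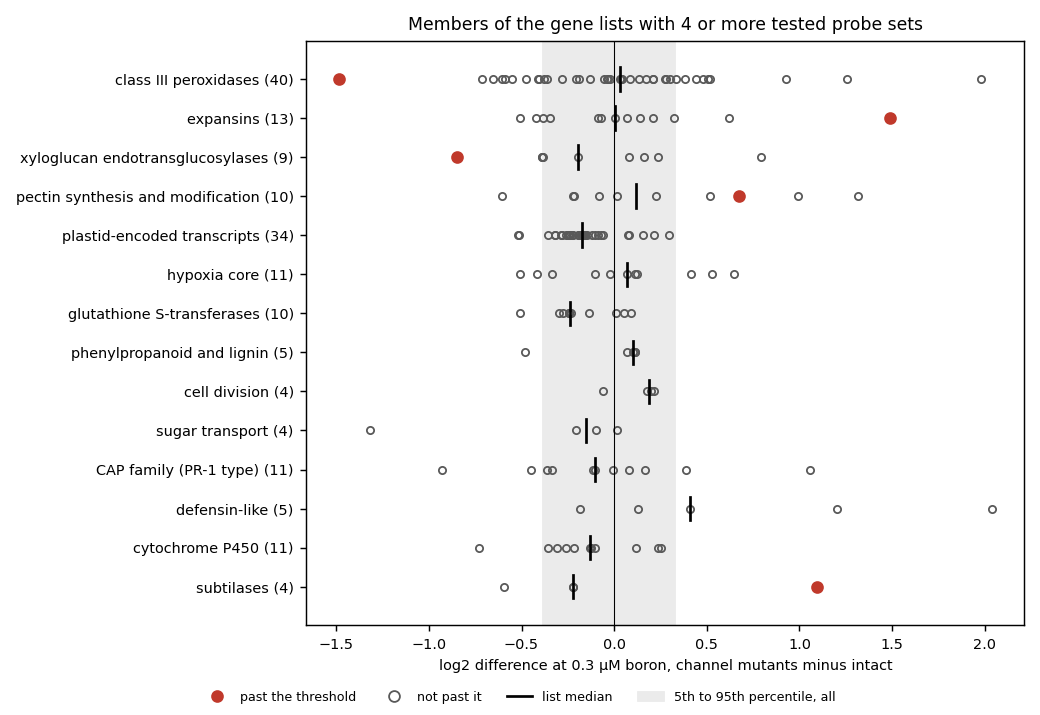
Log2 difference between the channel mutants and the intact genotypes at 0.3 µM boron for the members of the 14 gene lists with 4 or more tested probe sets, 1 point per probe set, with the number tested in brackets. Filled points passed the threshold, black bars are list medians and the grey band spans the 5th to 95th percentile of all tested probe sets.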

How the data were processed

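Transcript levels were measured on Affymetrix ATH1 arrays in roots of 7 genotypes at 2 boron levels. The deposited values are linear intensity values that the authors made with MAS5, per the submitters' processing notes, version and settings not given in the sources used here. All arrays already shared a trimmed mean of 500.04 signal units, and array medians at 0.3 µM ran from 194 to 204. Precision is limited by the number of arrays.

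After scaling to the common 2% trimmed mean, values were floored at the 20th percentile (20 signal units), log2 was taken, and those 60% of 22746 probe sets with the highest mean signal on 14 arrays were tested (at least 113). Fold changes near the floor are understated. Genes were named from the platform annotation, updated through RefSeq (TAIR10.1). A single gene was named by 13513 probe sets (13436 matched RefSeq), several by 503 and none by 8730. Of 615 listed loci, 199 had a named probe set.

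Differences were tested with limma 3.58.1 under R 4.3.3 (lmFit, eBayes with trend, two-sided, Benjamini-Hochberg over 13648, threshold 0.05) on the 7 arrays at 0.3 µM, and on the 7 within-genotype differences. The fits were run on simulated data with independent noise. The fit at 0.3 µM recovered 36% of log2 differences of 0.5 and 78% of those of 1, with 7 false calls. The fit of the change with boron recovered 10% and 56%, with 3 false calls. No simulated array stood apart as bor2 did, so the simulation cannot speak to the dependence on single arrays. Single values per array were compared by exact permutation over 35 splits (smallest p 0.0286). The text names up to 15 rises and 15 falls of the greatest size with 1 gene name, no overlap and a passed test, list members that passed, boron transport genes, and the 2 greatest rises and falls without a name. AT1G59740, AT2G34140, AT2G31110, AT3G51670 and all genes named that did not pass, apart from the boron transport list, were chosen after their values were seen. Members, lists and tests were chosen with earlier results of these data known.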

Additional observations from a re-analysis of the deposited data

Results flagged for a closer look

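AT5G22580 and EXPA20 stood out because the class difference at 0.3 µM differed from that at 100 µM, by 2.91 (limma adjusted p = 0.0438) and 1.55 (adjusted p = 0.0335) on the log2 scale. The same test singled out 260438_at, at 2.61 (adjusted p = 0.00776), and 254971_at, at -2.66 (adjusted p = 0.00361). With nip5;1 left out this test called 0 positive values, so AT5G22580, EXPA20 and 260438_at did not pass then. For AT5G22580 the log2 difference was 2.50 at 0.3 µM and -0.42 at 100 µM, and for EXPA20 it was 1.49 at 0.3 µM and -0.05 at 100 µM.

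In 3 transcripts 1 channel mutant array lay far from the others at 0.3 µM. For 250199_at it was the bor2 double mutant, with a signal of 322 where the other mutants had 604 to 670.0, and the gap to the nearest array was 0.859 of the range of the 4. For 266965_at it was the nip6;1 double mutant, at 29.2, with the other 3 under the floor and therefore a gap of 1 that the floor itself makes. For AT1G59740 it was also the nip6;1 double mutant, at 572, with a gap of 0.844. These gaps, on the log2 scale, exceed Dixon's 95% critical value for 4 arrays. On the linear signals before flooring the gap of AT1G59740 exceeds it too, at 0.856, while those of 250199_at (0.811) and 266965_at (0.814) do not. Chance singles out about 1 in 20 groups, of which 30 were examined.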

How the results depend on the processing

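Of 27 probe sets described by name or ID that passed, all 27 also passed with log2(value + 32), with the robust variance prior and without bor2, 26 with quantile normalization and with all 14 arrays, and 24 without the intensity trend. With nip5;1 left out 5 passed. The 46 calls at 0.3 µM became 27 in the brightest 40%, 3 without a filter, 135 with all 14 arrays and genotype as a random block (97 higher, 38 lower), and 0 both with background as a block in the 3 matched pairs and with the GAPDH covariate (limma; 972 and 886 at an unadjusted p under 0.05). Leaving out 1 array gave 9 to 211 calls. The 15 calls of the change with boron became 7 in the brightest 40% and 0 without a filter (limma; 1465 at an unadjusted p under 0.05), and 2 to 46 with 1 genotype left out. The difference in GAPDH ratio ran from -0.242 to -0.0804 with 1 array left out. Fewer samples or more probe sets enter some of these fits; the cause of the other changes was not tested. No called value changed sign under any of these alternatives. The annotation used names too few probe sets to follow most of the transport genes, and 1 array per genotype leaves biological and array error undivided.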
